A study of Arabidopsis thaliana with 39 samples.

Results

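LUMINIDEPENDENS (LD, AT4G02560) lies near the top of chromosome 4 of Arabidopsis thaliana, and the 256 genes described here are its neighbours from AT4G01500 to AT4G03600 in locus order. They are the rows of that range found in all 4 tables, after LD itself and 4 more genes were set aside, which leaves 256 of 261. They were taken by locus order and not by measured values, though earlier results of these data were known when the range was chosen. Another 4042 genes elsewhere on chromosome 4 were in all 4 tables, which together share 28728 genes. Of the neighbours, 254 have a position in the TAIR10.1 reference, 238 are protein coding and 119 start within 250 kb of the start of LD. Their starts run from -489 kb to 476 kb relative to the start of LD.

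LD is a homeodomain protein of the nucleus and belongs to the autonomous pathway of flowering, which lowers the expression of the floral repressor FLC. Genes that lie close together on a chromosome are inherited together, so a mutant line that has been crossed to another line keeps a stretch of the original chromosome around its mutation. Sequence variants in that stretch travel with the mutation and can alter the transcripts of the genes beside them. The question put to the 256 neighbours was whether they differed from wild type more often than other genes of the same chromosome in plants that carry ld.

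RNA was sequenced from whole 7-day-old plantlets and from shoot apices dissected from plants of the same age, 30 apices per sample, all grown on MS medium with 16 h of light a day. Seedling set 1 held fld, ld and Col0. Seedling set 2 held ld pol2a, ld, pol2a and Col0, and seedling set 3 held ld and Col0. The apex set held ld pol2a, ld, pol2a and Col0, and every group had 3 libraries, 39 in all. Col0 is the wild type. FLD is a histone demethylase-like protein of the same pathway, encoded on another chromosome, and pol2a is a mutant of DNA polymerase epsilon, in its catalytic subunit. The ld pol2a plants carry both mutations, so they share ld with the ld plants and pol2a with the pol2a plants. The sources used here do not give the alleles of ld, fld and pol2a, their backgrounds or their crossing histories. The design text calls the replicates biological, but nothing says that they came from separate sowings, so p-values measure only how these libraries spread, and that spread may be technical.

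Depth, in units of 1e6 reads per library, was 10.4 to 14.4 (set 1), 13.2 to 35.0 (set 2), 23.1 to 37.8 (set 3) and 11.95 to 21.1 (apices). Seedling levels are given as median-scaled signal, which is the deposited spike-in signal rescaled so that the median gene does not differ between libraries of a set, and apex levels as CPM after TMM scaling. Log2 changes in seedlings are on log2(signal + 1) and are relative to the median gene. A gene was called when its adjusted p was under 0.05, with limma in seedlings and edgeR's quasi-likelihood test in apices, both adjusted over all genes by the Benjamini-Hochberg method. Of the 256 neighbours, 161 passed the filter on low values in every set, 68 passed it in none and 19 were at 0 in every library. The third ld apex library stood apart from the other libraries of its group. In whole plantlets and in apices, fewer cells of a type and less RNA per cell cannot be told apart.

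LD itself was not uniformly low in the libraries labelled ld, and since the allele is not given, its level does not check the labels. In set 1 LD had a median-scaled signal of 321, 299 and 291 in ld, against 126, 131 and 122 in Col0, and it was higher in every library labelled ld (log2 change 1.26, limma, adjusted p = 2.89e-12). The fld libraries of that set held 225, 222 and 218. In set 2 LD had 297, 298 and 329 in ld and 242, 281 and 264 in Col0 (log2 change 0.23, limma, adjusted p = 0.0547). In set 3 it fell to 496, 545 and 551 in ld, against 623, 608 and 676 in Col0 (log2 change -0.26, limma, adjusted p = 0.0025). In apices LD had 9.62, 11.2 and 4.23 CPM in ld and 17.6, 21.4 and 14.7 CPM in Col0, without passing the test (log2 change -1.10, edgeR, adjusted p = 0.0912). It fell to 4.93, 3.8 and 3.6 CPM in ld pol2a apices, against 11.2, 18.4 and 18.5 CPM in pol2a apices (log2 change -1.95, edgeR, adjusted p = 0.00254). Below, ld and ld pol2a stand for the libraries labelled so.

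Genes near LD were called in ld about as often as genes elsewhere on the chromosome. In set 1, 96 of 171 tested neighbours were called in ld against Col0, 52 higher and 44 lower. That is 56.1% of the neighbours, beside 54.6% of 2743 genes elsewhere on chromosome 4 and 53.0% of all genes (25.6% higher and 27.5% lower). These shares are set side by side as a description, without a test. In set 2, 63 of 172 were called, 36 higher and 27 lower, which is 36.6% beside 34.7% elsewhere and 34.5% of all genes (18.6% higher and 15.9% lower). In set 3 the shares differed most among the seedling sets. There 85 of 185 were called, 44 higher and 41 lower, which is 45.9% beside 39.2% of 3010 genes elsewhere and 38.5% of all genes (19.2% higher and 19.3% lower).

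Among genes whose exons overlap no other gene, the share called in set 3 was not higher near LD than elsewhere. There 45 of 113 neighbours were called, 39.8% beside 40.6% elsewhere. With overlapping genes kept, the shares were 45.9% and 39.2%, and the part of overlap in this was not tested. Of the 256 neighbours 84 have such an overlap, and the sources used here do not say whether reads were counted by strand, so the reads of overlapping genes may be shared. Set 3 stood apart in this. AT4G01595, which overlaps AT4G01593 on the other strand, averaged 0.94 and 3.1 in deposited signal in sets 1 and 2, but 566 in set 3. In apices it averaged 0.92 reads. Its log2 change in ld of set 3 was -0.36, beside -0.37 for AT4G01593. Whether set 3 was counted differently from the other sets was not tested. The 3 Col0 libraries of set 3 include a pair that differed by less than the full sampling noise, and with that pair taken as 1 sample 66 neighbours were called, 35.5% beside 31.1% elsewhere.

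On the deposited spike-in scale, where the median of all genes lay higher in ld by log2 1.23, 0.56 and 0.69 in sets 1, 2 and 3, nearly all neighbours were higher. There 168 of 171 were higher and 0 lower in set 1, 142 higher and 4 lower of 172 in set 2, and 179 higher and 0 lower of 185 in set 3. These are 98.2%, 84.9% and 96.8% of the neighbours, beside 97.4%, 82.1% and 95.0% elsewhere and 97.6%, 81.5% and 94.9% of all genes. The median log2 change of the neighbours on that scale was 1.25, 0.56 and 0.69, beside 1.22, 0.56 and 0.69 elsewhere. All directions below are relative to the median gene, and a gene lower in ld by less than that shift was higher in ld on the spike-in scale.

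In apices few genes of any region were called in ld. Of 168 tested neighbours 2 were called, 1 higher and 1 lower, which is 1.19% beside 1.02% of 2653 genes elsewhere and 0.968% of all genes (0.38% higher and 0.588% lower). By 4 other rules the neighbours' share lay further above the rest, as a description with no test. At an unadjusted p under 0.05 edgeR listed 40 neighbours, 23.8% beside 19.8% elsewhere and 19.1% of all genes. DESeq2 called 13, which is 7.74% beside 4.45% elsewhere and 4.51% of all genes. Same-numbered ld and Col0 apex libraries deviated together, and with the replicate number as a block edgeR called 7 neighbours, 4.17% beside 2.9% elsewhere and 2.8% of all genes. Without the third ld library 29 neighbours were called, 17.3% beside 13.2% elsewhere and 13.3% of all genes. Other fits went the other way. No neighbour was called with 2 groups alone in the fit, or without Col0 library 1 or 2 or ld library 1 or 2. Shares elsewhere in those fits are not given here.

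**Figure D1:**
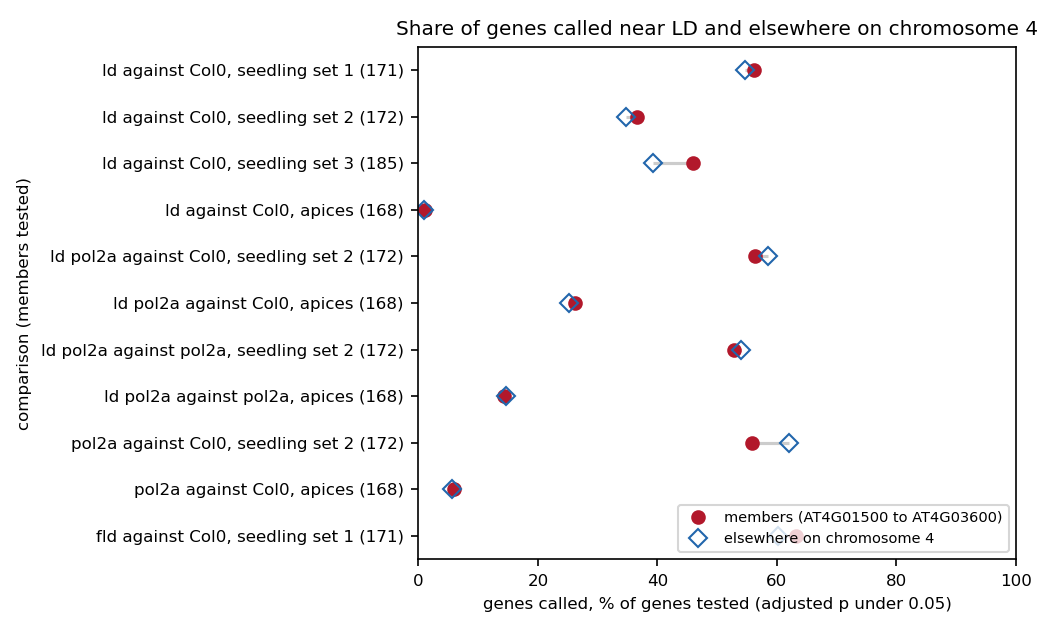
Share of tested genes called at an adjusted p under 0.05 (x axis, percent) in each of 11 comparisons (rows), for the neighbours of LD (red circles) and for genes elsewhere on chromosome 4 (blue diamonds). The markers of each row lie close together, and the widest gap in ld against Col0 is in seedling set 3, at 45.9% against 39.2%.

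The sizes of the changes were also alike. The median absolute log2 change of the neighbours in ld against Col0 was 0.26 in set 1, 0.16 in set 2, 0.13 in set 3 and 0.21 in apices, beside 0.24, 0.16, 0.12 and 0.21 elsewhere on the chromosome. A called change of at least 2-fold was seen in 6 neighbours in set 1 (3.51%, beside 3.86% elsewhere and 3.62% of all genes) and in 5 in set 2 (2.91%, beside 2.05% and 2.17%). It was seen in 4 in set 3 (2.16%, beside 1.40% and 1.36%) and in 1 in apices (0.595%, beside 0.452% and 0.358%). The largest absolute log2 change among the neighbours was 1.58, 1.22, 1.57 and 1.93 in these sets, and elsewhere on the chromosome it was 3.42, 2.65, 4.30 and 4.97. No neighbour had 3 or more reads in every library of a genotype and 0 in every library of the other, in any of the 11 comparisons, and elsewhere on the chromosome 0 to 6 of 4042 genes did per comparison, so nothing is read from this. The neighbours together took 0.946 to 0.952% of the reads in ld and 0.904 to 0.907% in Col0 of set 1, with no overlap. In fld of that set they took 0.9395 to 0.9437%, also above Col0 with no overlap, so this was not particular to ld. The shares of ld and Col0 overlapped in the other sets, at 0.968 to 0.982% and 0.945 to 0.977% in set 2, 1.00 to 1.01% and 1.01 to 1.02% in set 3, and 1.02 to 1.04% and 1.00 to 1.03% in apices. In ld pol2a the share was above that in pol2a with no overlap, at 1.02 to 1.03% and 0.939 to 0.958% in set 2, and 0.984 to 0.993% and 0.943 to 0.974% in apices.

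**Figure D2:**
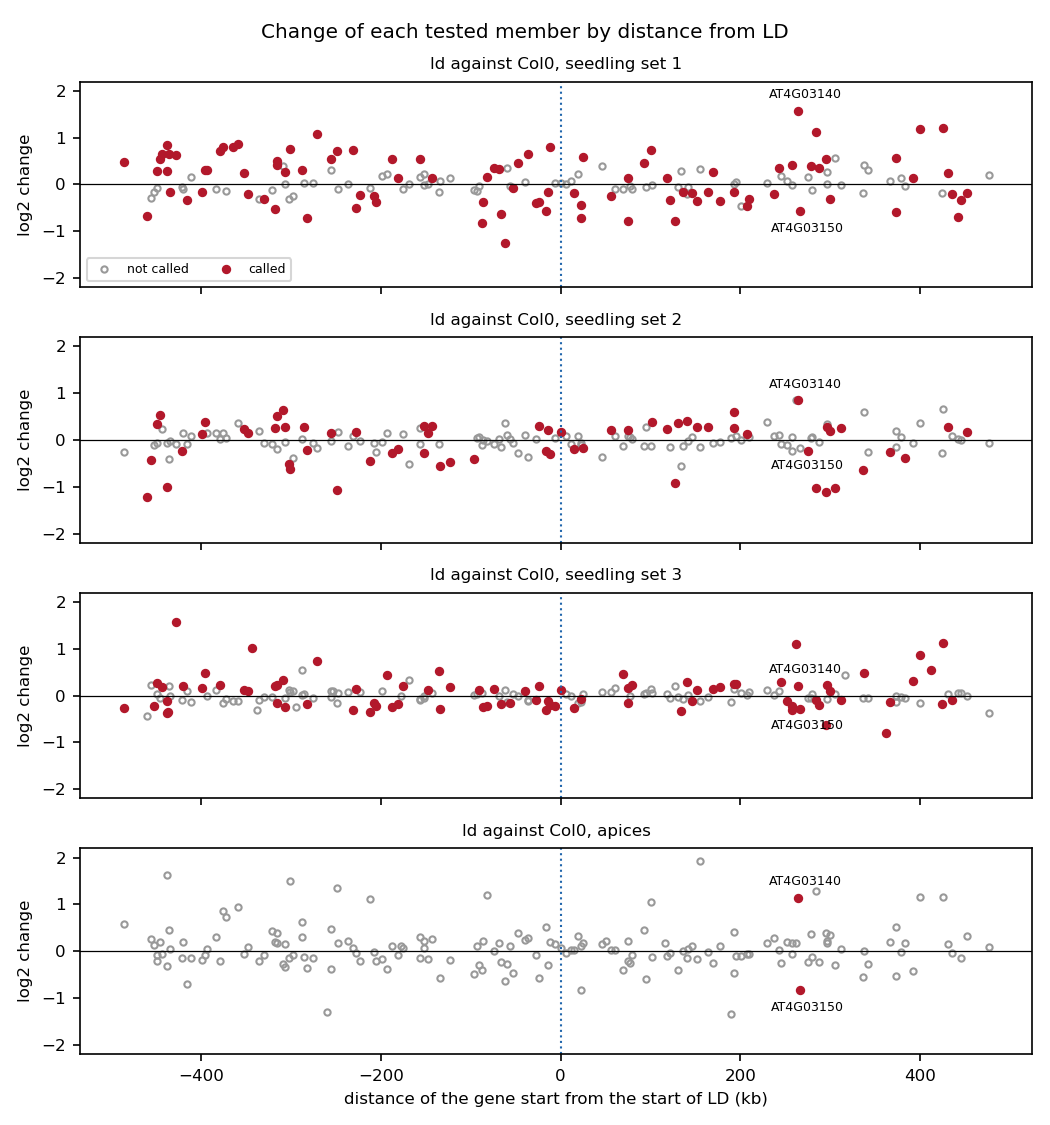
Log2 change of each tested neighbour (y axis) in ld against Col0 of the 4 sets (panels), by the distance of its start from the start of LD in kb (x axis), with called genes filled in red. Called genes lie on both sides of 0 and along the whole stretch, and AT4G03140, 264 kb to the right of LD, is labelled.

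In ld against Col0 the share of called neighbours was lower close to LD than farther away in each of the 4 sets, and this difference was not tested. Within 250 kb of LD, 48 of 90 tested neighbours were called in ld of set 1 (53.3%), and beyond that 48 of 81 (59.3%). The same shares were 34.1% within and 39.5% beyond in set 2, and 45.2% and 46.7% in set 3. In apices 0 of 90 and 2 of 78 were called. Of all genes, 53.0%, 34.5%, 38.5% and 0.968% were called in sets 1, 2 and 3 and apices. Changes of at least 2-fold were called in 1 of 90 within and 5 of 81 beyond in set 1, 1 of 91 and 4 of 81 in set 2, and 0 of 93 and 4 of 92 in set 3. In ld pol2a the order varied. Against Col0 the shares within and beyond 250 kb were 54.9% and 58.0% in set 2, and 27.8% and 24.4% in apices. Against pol2a they were 53.8% and 51.9% in set 2, and 11.1% and 17.9% in apices. For ld against Col0 the whole chromosome was then cut into stretches of 250 kb with at least 20 tested genes each. In set 1 the 4 stretches around LD held 50 to 63.8% called genes, within the 43.2 to 70.2% of the others. In set 2 they held 33.3 to 41.3%, beside 17.5 to 54.3%. In set 3 they held 35.6 to 54.2%, beside 22.0 to 52.2%. The stretch from -250 to 0 kb, directly beside LD, had 26 of 48 genes called. It thus stood above every other stretch with at least 20 tested genes, by a narrow margin (54.2% beside 52.2% for the highest beyond 500 kb). The stretch from 0 to 250 kb, on the other side of LD, held 35.6% in that set. In sets 1 and 2 the stretch from -250 to 0 kb held 54.3% and 34.8%, beside medians of 54.8% and 34.75% beyond 500 kb. In apices 0 of its 45 genes were called.

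**Figure D3:**
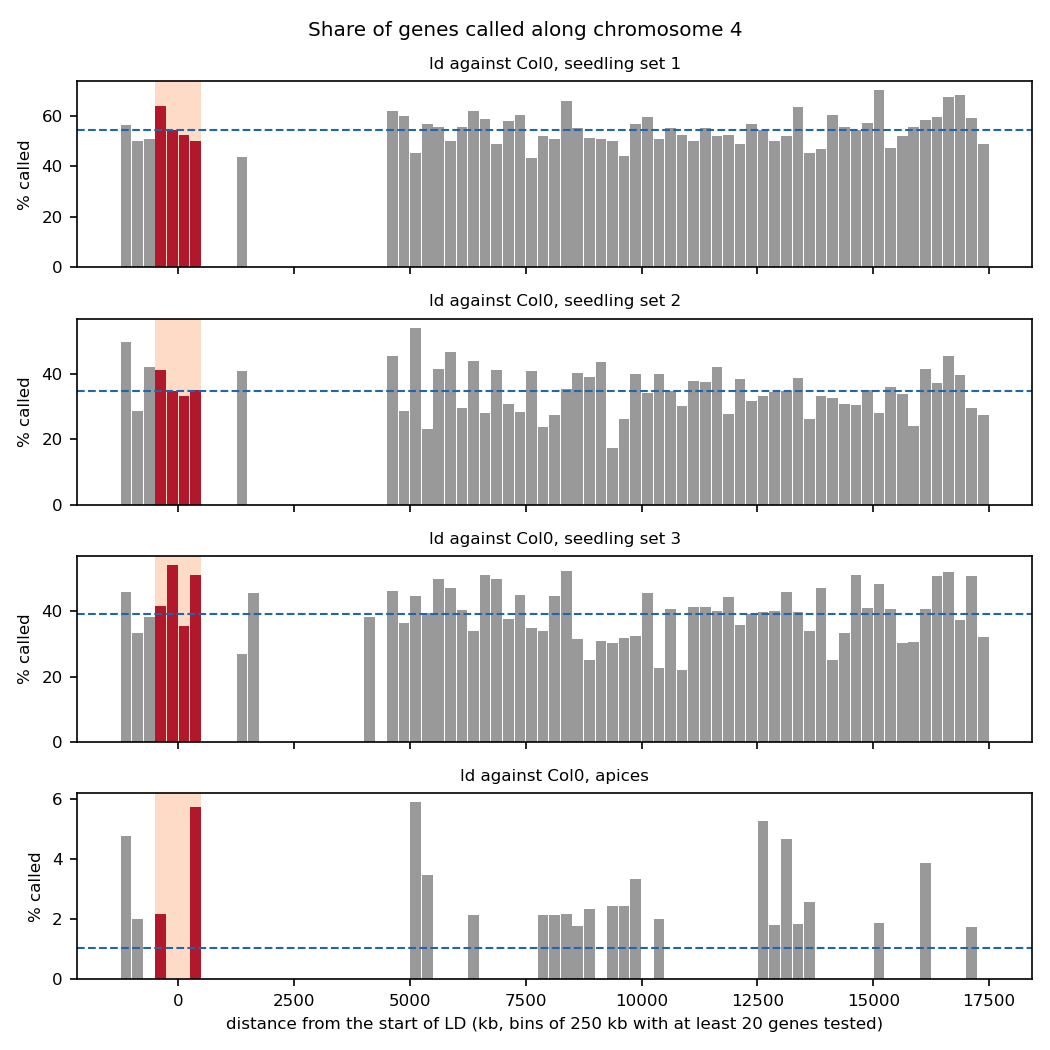
Share of tested genes called in ld against Col0 (y axis, percent) in stretches of 250 kb along chromosome 4, by distance from the start of LD in kb (x axis), in the 4 sets (panels). Stretches within 500 kb of LD are red and the dashed line is the share elsewhere on the chromosome. The tops of the red bars lie on both sides of the line in each panel, and in seedling set 3 the highest red bar, at 54.2%, is the highest of that panel.

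The ld comparisons of the 4 sets share no library, so the same genes could be followed across them. Of 170 neighbours tested in all 3 seedling sets, 24 were called in each, and 8 of these changed in the same direction in each, 5 higher and 3 lower. That is 4.71%, beside 4.99% elsewhere on the chromosome and 4.44% of all genes. Sets 1 and 2 often differed in sign. Of the neighbours called in ld, 39 were shared (among 96 called in set 1 and 63 in set 2), and 17 of the 39 had the same sign, 43.6% beside 47.1% elsewhere. Called in the same direction in both were 10% of the tested neighbours, 10.7% of genes elsewhere and 9.88% of all genes. Between sets 1 and 3, 51 were shared (of 96 and of 85) and 27 had the same sign, 52.9% both here and elsewhere, and 15.8% of tested neighbours, 13.0% of genes elsewhere and 12.2% of all genes were called in the same direction. Sets 2 and 3 were closer, with 33 shared (of 63 and of 85) and 29 of the same sign, 87.9% beside 77.7% elsewhere. In that pair 16.9% of tested neighbours, 13.7% of genes elsewhere and 13.3% of all genes were called in the same direction.

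**Figure D4:**
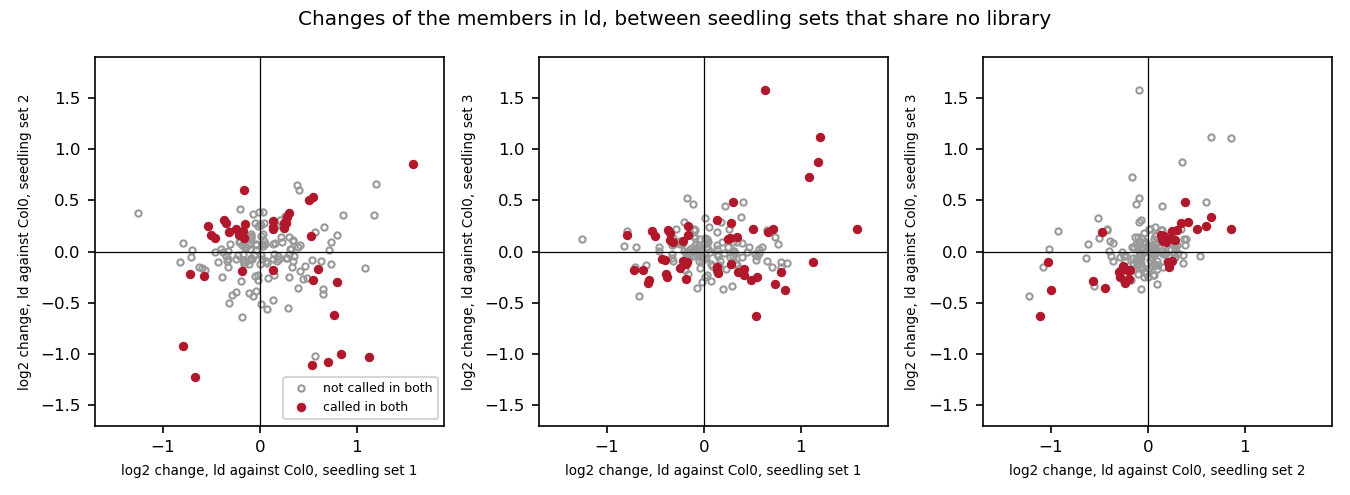
Log2 change of each neighbour in ld against Col0 in one seedling set (x axis) and another (y axis), for sets 1 and 2, 1 and 3, and 2 and 3 (panels), with genes called in both sets in red. In the first panel the red points fill all quadrants, with 17 of 39 on the same side of 0 in both sets, and in the last 29 of 33 are.

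AT4G03140 was the single neighbour that passed the test in the same direction in ld of all 4 sets, 1 of 161 tested in every set (0.621%, beside 0.199% elsewhere and 0.171% of all genes). It encodes an NAD(P)-binding Rossmann-fold protein, of a family of short-chain oxidoreductases, and lies at chr4:1392121-1393842 on the plus strand with 4 exons. In set 1 it had 76.1, 64.3 and 54.9 in ld, against 21.9, 22.0 and 19.1 in Col0. Every ld library was above every Col0 library (log2 change 1.58, SE 0.16, limma, adjusted p = 4.08e-08). The fld libraries of that set, which carry no ld mutation by their label, held 62.7, 53.4 and 55.8, and AT4G03140 was called higher there as well (log2 change 1.41, limma, adjusted p = 1.69e-07).

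In set 2 AT4G03140 had 47.9, 43.5 and 55.3 in ld, against 19.9, 25.8 and 36.2 in Col0, with no overlap (log2 change 0.85, SE 0.26, limma, adjusted p = 0.0162). In set 3 it had 596, 626 and 540 in ld and 490, 511 and 513 in Col0, again with no overlap and a smaller change (log2 change 0.22, SE 0.05, limma, adjusted p = 0.00798). These levels are far above those of sets 1 and 2. AT4G03140 overlaps AT4G03150 and AT4G04435, both on the other strand, and their part in the set 3 values was not tested. The set 3 call may thus not measure the same transcript as the others. In apices AT4G03140 had 6.14, 5.88 and 5.22 CPM in ld and 2.73, 1.86 and 3.25 CPM in Col0 (log2 change 1.14, SE 0.21, edgeR, adjusted p = 0.0367). The apex call was lost when Col0 library 1 or 2 or ld library 1 or 2 was left out, with adjusted p of 0.185, 0.108, 0.111 and 0.140, and with 2 groups alone in the fit (adjusted p = 0.229). The set 2 call was lost without Col0 library 1 (adjusted p = 0.0860) or ld library 3 (adjusted p = 0.0631).

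The same gene was higher in the double mutant than in pol2a, a comparison that shares no library with ld against Col0. In set 2 AT4G03140 had 28.3, 49.4 and 37.0 in ld pol2a and 16.0, 11.0 and 8.45 in pol2a, with no overlap (log2 change 1.62). The pol2a libraries averaged less than the filter's minimum of 10 in deposited signal. The gene thus passed the filter through the groups where it is higher, so this value is given without a test. In apices it had 3.42, 4.02 and 3.92 CPM in ld pol2a and 1.77, 2.31 and 2.15 CPM in pol2a (log2 change 0.85, edgeR, adjusted p = 0.0216). Against Col0 the ld pol2a libraries did not pass the test, with a log2 change of 0.48 in set 2 (limma, adjusted p = 0.129) and 0.53 in apices (edgeR, adjusted p = 0.0832). In pol2a alone AT4G03140 was lower in set 2 (log2 change -1.14 against Col0), given without a test for the same reason.

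AT4G03150, a protein-coding gene at chr4:1393614-1394583 on the minus strand, runs towards AT4G03140 and overlaps its end by 229 bases. It was the other neighbour called in ld apices and it moved the other way. It had 15.2, 15.2 and 22.6 CPM in ld apices, against 31.7, 26.6 and 35.6 CPM in Col0 apices, with no overlap (log2 change -0.83, SE 0.17, edgeR, adjusted p = 0.0450). In set 1 AT4G03150 had 120, 112 and 96.8 in ld and 150, 169 and 168 in Col0 (log2 change -0.57, limma, adjusted p = 3.96e-05), and in set 3 393, 456 and 396 in ld and 522, 511 and 475 in Col0 (log2 change -0.28, limma, adjusted p = 0.00408). Its libraries did not overlap in either set. In set 2 it had 242, 200 and 250 in ld and 254, 276 and 251 in Col0, with the highest ld library just under the lowest Col0 library and no call (log2 change -0.18, limma, adjusted p = 0.111). In ld pol2a it fell against pol2a in set 2 (log2 change -0.32, limma, adjusted p = 0.00262) and in apices (log2 change -0.56, edgeR, adjusted p = 0.0404). The apex call of AT4G03150 in ld was lost in 5 of the 6 fits without 1 library of these groups, all but that without ld library 3, and with 2 groups alone in the fit (adjusted p = 0.255). In fld it was not called (log2 change -0.11, limma, adjusted p = 0.323).

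The ratio of AT4G03140 to AT4G03150 within a library, taken between levels that are not per length, separated ld from Col0 in every set. Both genes were named for their changes in ld of these same libraries, so the separation is a description and not a further result. The ratio of levels was 0.567 to 0.635 in ld and 0.114 to 0.146 in Col0 of set 1, and 0.198 to 0.221 in ld and 0.0783 to 0.144 in Col0 of set 2. It was 1.36 to 1.52 in ld and 0.940 to 1.08 in Col0 of set 3, and 0.231 to 0.405 in ld and 0.0700 to 0.0913 in Col0 apices. In ld pol2a it was 0.127 to 0.201 in set 2 and 0.174 to 0.207 in apices, and in pol2a 0.0286 to 0.0522 and 0.0535 to 0.0854. The ranges did not overlap in any of these pairs. In fld it was 0.337 to 0.406, between ld and Col0. Since the genes overlap on opposite strands and the use of strand in counting is not given, part of the reads of each may belong to the other. In Col0 the ratio was far higher in set 3, at 0.940 to 1.08, than in the other sets, where it was at most 0.146. Whether set 3 was counted differently was not tested.

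**Figure D5:**
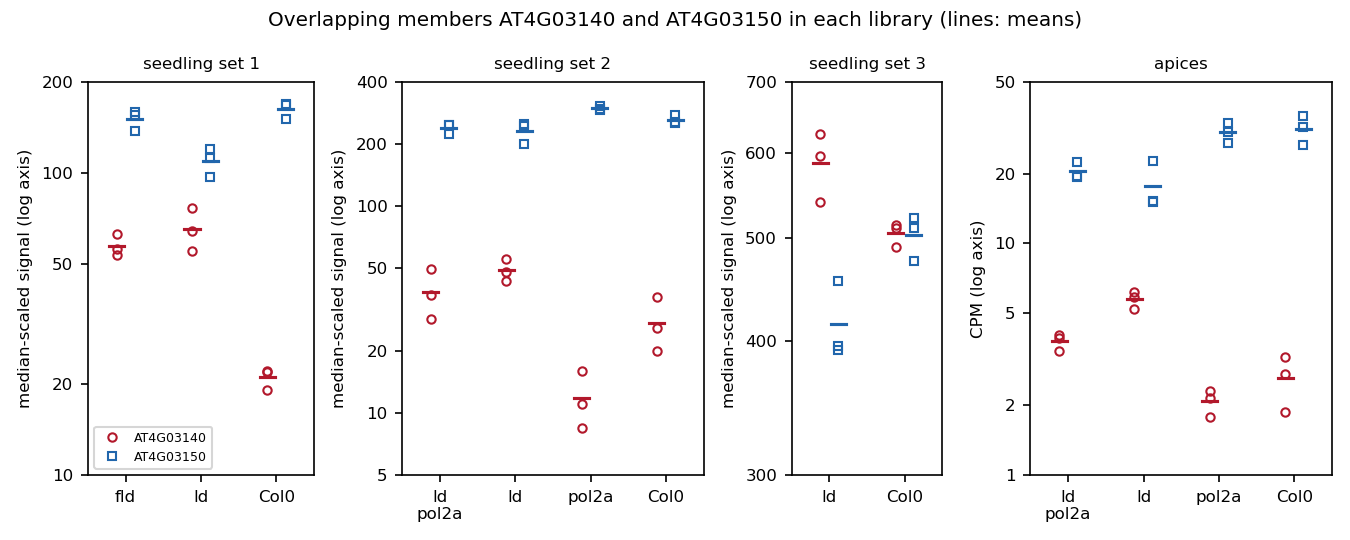
Level of AT4G03140 (circles) and AT4G03150 (squares) in each library (points) and the group means (lines), on a log axis, in median-scaled signal for the seedling sets and in CPM for apices (panels). In each panel the circles are higher in ld than in Col0, as are those of ld pol2a beside pol2a, and the squares of ld lie below those of Col0, by least in set 2, where the nearest libraries hold 250 and 251.

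The 250 bases upstream of the starts of this pair are shown because its members moved in opposite directions from the outer ends of the same short stretch. They were read from TAIR10.1, each 5′ to 3′ on the strand of its gene. Capitals mark the only match to TATAAA, the core of a TATA box, sought on both strands. In the AT4G03140 window it lies 199 bases before the start and reads as TATAAA on the opposite strand, and the AT4G03150 window holds none. Of 4180 windows of the same length before protein-coding genes of chromosome 4, 47.4% hold TATAAA on either strand.
AT4G03140 upstream, chr4:1391871-1392120, plus strand: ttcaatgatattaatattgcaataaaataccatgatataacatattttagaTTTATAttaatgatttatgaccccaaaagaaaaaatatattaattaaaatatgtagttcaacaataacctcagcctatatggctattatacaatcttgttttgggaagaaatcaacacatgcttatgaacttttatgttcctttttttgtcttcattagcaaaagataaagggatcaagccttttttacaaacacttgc
AT4G03150 upstream, chr4:1394584-1394833, minus strand: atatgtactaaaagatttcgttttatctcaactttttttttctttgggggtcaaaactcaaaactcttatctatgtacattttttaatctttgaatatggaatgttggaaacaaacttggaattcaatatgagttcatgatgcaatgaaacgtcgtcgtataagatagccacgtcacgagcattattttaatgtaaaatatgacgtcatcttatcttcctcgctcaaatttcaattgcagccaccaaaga
These are the reference bases and not those of the mutant plants.

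Besides AT4G03140, 7 neighbours changed in the same direction in ld of all 3 seedling sets, and most of these changes were small. AT4G01883, a lipid-binding protein of the polyketide cyclase family, rose by log2 0.51, 0.51 and 0.22 in sets 1, 2 and 3. It had 265, 261 and 282 in ld and 180, 189 and 198 in Col0 of set 1, with no overlap (limma, adjusted p = 1.32e-06). AT4G01700, a chitinase-family gene, rose by log2 0.30, 0.38 and 0.48, and in set 3 it had 1471, 1523 and 1475 in ld and 1029, 1029 and 1138 in Col0 (limma, adjusted p = 3.23e-06). It overlaps AT4G01690 and AT4G03985 on the other strand. Its mean deposited signal was 241 and 233 in sets 1 and 2 and 1366 in set 3, so reads of those genes may be included there. AT4G01570, AGY1 and GSTF2, given next, also overlap other genes. AT4G01570, a tetratricopeptide-like protein, rose by log2 0.28, 0.34 and 0.28, and AGY1, the SecA motor of protein import into thylakoids, by log2 0.25, 0.23 and 0.12. Among those lower in ld, GPAT3, a glycerol-3-phosphate acyltransferase, changed by log2 -0.72, -0.22 and -0.18. GSTF2, a glutathione S-transferase, changed by log2 -0.57, -0.24 and -0.31, and had 6408, 6296 and 6418 in ld of set 3, against 7944, 7907 and 7819 in Col0 (limma, adjusted p = 1.67e-06). MLO1, a membrane protein of the MLO family, changed by log2 -0.18, -0.19 and -0.27.

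These 7 were not called in ld apices, where their log2 changes ran between -0.35 and 0.53. In apices AT4G01700, AT4G01570, AGY1, GSTF2 and MLO1 had the opposite sign to the seedlings, at -0.09, -0.22, -0.07, 0.53 and 0.03. On the spike-in scale GPAT3, GSTF2 and MLO1 were higher in ld of all 3 seedling sets and not lower. The call of GPAT3 was lost in set 3 with the similar Col0 pair taken as 1 sample (adjusted p = 0.0809). It was also lost in set 2 without Col0 library 1, 2 or 3 or ld library 2, and in set 3 without Col0 library 1 or 2 or ld library 2 or 3. The call of AT4G01700 was lost in set 2 without Col0 library 3 (adjusted p = 0.0645), and that of AT4G01883 in set 3 without ld library 2 (adjusted p = 0.0553). That of AT4G01570 was lost in set 1 without Col0 library 1, ld library 2 or ld library 3 (adjusted p = 0.0802, 0.0744 and 0.0554). That of MLO1 was lost in set 2 without Col0 library 1 or 2 or ld library 1 or 2. Against pol2a, the ld pol2a libraries of set 2 were higher for AT4G01883 (log2 change 0.21) and AT4G01700 (log2 change 0.83), lower for GPAT3 (log2 change -1.22) and MLO1 (log2 change -0.26), and of the other sign for GSTF2, AT4G01570 and AGY1 (log2 changes 0.22, -0.40 and -0.33). All 7 passed the test there.

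Several of the largest changes turned round between sets. The clearest was hemf2 (AT4G03205, chr4:1412785-1414902, plus strand), which encodes a coproporphyrinogen III oxidase of haem and chlorophyll synthesis. In set 1 it had 735, 745 and 729 in ld, against 344, 326 and 342 in Col0 (log2 change 1.12, SE 0.05, limma, adjusted p = 2.23e-14). In set 2 it had 165, 166 and 183 in ld, against 341, 367 and 343 in Col0 (log2 change -1.03, SE 0.09, limma, adjusted p = 1.5e-08). The ld libraries were thus all above Col0 in one set and all below it in the other. In the same set 2, hemf2 had 472, 408 and 402 in ld pol2a and 101, 121 and 104 in pol2a (log2 change 1.97, limma, adjusted p = 1.94e-13). In set 3 the change was -0.10 on the log2 scale (limma, adjusted p = 0.0360). In apices hemf2 had 13.7, 8.34 and 1.9 CPM in ld and 2.57, 4.69 and 2.57 CPM in Col0, and the groups overlapped.

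AT4G01593, a long noncoding RNA that overlaps AT4G01595, followed the same course. It had 356, 375 and 390 in ld and 209, 193 and 223 in Col0 of set 1 (log2 change 0.84), but 120, 133 and 113 in ld and 252, 253 and 228 in Col0 of set 2 (log2 change -1.0). In ld pol2a against pol2a it was higher, by log2 1.08. AT4G03230, a G-type lectin receptor kinase, changed by log2 0.54, -1.11 and -0.63 in ld of sets 1, 2 and 3. On the spike-in scale the falls of AT4G03230 and AT4G01593 in set 3 were rises, of log2 0.056 and 0.32. AT4G02005, a noncoding RNA chosen after its values were seen, changed by log2 0.70, -1.08 and -0.16. BSM, of the mTERF family that acts on organelle transcripts, went the other way, by log2 -0.16, 0.60 and 0.25, and it was lower in ld pol2a than in pol2a of set 2 (log2 change -0.59) but higher in apices (log2 change 0.66, edgeR, adjusted p = 0.0037).

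Other named changes differed in size or sign between sets. STS, the stachyose synthase of raffinose-family sugars, was also chosen after its values were seen. It had 22.9, 26.7 and 29.8 in ld and 13.9, 12.7 and 9.56 in Col0 of set 1 (log2 change 1.08), and its log2 change in fld of that set was 1.10. It passed the filter on low values there through the ld and fld libraries, since Col0 averaged under 10 in deposited signal, so these values are a description. In set 3 STS rose by log2 0.73 in ld, and in set 2 the groups overlapped (log2 change -0.16, limma, adjusted p = 0.589). AT4G02420, a lectin receptor kinase, fell in ld of set 1 by 1.26 on the log2 scale. AT4G02715, a FLO11-like protein, had 59.4, 70.2 and 64.2 in ld and 134, 101 and 104 in Col0 of that set (log2 change -0.79, limma, adjusted p = 4.24e-05), and its log2 change was 0.08 in set 2 and 0.16 in set 3. On the spike-in scale AT4G02715 was higher in ld of set 1. AT4G01895, related to the NIMIN proteins that bind the immune regulator NPR1, rose in ld of set 2 (log2 change 0.65, limma, adjusted p = 0.00368) and of set 3 (log2 change 0.34, limma, adjusted p = 0.0295).

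The ankyrin-repeat genes AT4G03440 to AT4G03500 form a tandem cluster near the right edge of the stretch, with 7 members of which 2 to 4 could be tested per set. As a description, since members can pass the filter on low values through the libraries where they are high, called in ld were 2 higher of 3 in set 1, none of 3 in set 2, 3 higher and 1 lower of 4 in set 3, and none of 2 in apices. Of all genes, 25.6% were called higher in set 1 and 19.2% higher and 19.3% lower in set 3. Called either way were 34.5% in set 2 and 0.968% in apices. AT4G03440 had 48.0, 43.5 and 52.1 in ld and 21.9, 26.6 and 14.9 in Col0 of set 1 (log2 change 1.18, limma, adjusted p = 5.52e-05). It had 149, 153 and 165 in ld and 81.2, 81.0 and 90.7 in Col0 of set 3 (log2 change 0.88, limma, adjusted p = 1.2e-05). The groups did not overlap in either set, and in set 2 the change missed the threshold (log2 change 0.36, limma, adjusted p = 0.280). AT4G03490, which overlaps AT4G03500, had 12.5, 14.8 and 20.5 in ld and 4.62, 6.94 and 7.43 in Col0 of set 1 (log2 change 1.20). In set 3 it had 75.9, 91.7 and 84.0 in ld and 32.3, 37.6 and 44.8 in Col0 (log2 change 1.12, limma, adjusted p = 6.91e-05). Its log2 change in ld pol2a against pol2a was 1.19 in set 2 and 2.31 in apices. In set 1, set 2 and apices AT4G03490 passed the filter through the groups where it is high, so its values there are given without a test. Reads of such tandem repeats can be split between copies, so values of single members are uncertain.

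A pair of root-expressed neighbours was higher in ld of set 3. EXPA17, an expansin of the root, had 45.7, 36.9 and 46.7 in ld and 15.7, 11.6 and 14.2 in Col0 of that set (log2 change 1.57, SE 0.19, limma, adjusted p = 4.65e-05). RHS13, a gene of root hairs, had 856, 835 and 799 in ld and 549, 589 and 596 in Col0 (log2 change 0.52, limma, adjusted p = 3.27e-06). Neither pair of groups overlapped. In ld of set 1 the log2 change of EXPA17 was 0.64. It passed the filter there through ld and fld, so this value is given without a test. RHS13 was not called in that set (log2 change -0.17). In set 2 both log2 changes were -0.09. Both genes stayed at or below 0.14 CPM in every apex library. The part of root content in other changes of set 3 was not tested.

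Of the 3 nearest tested genes on each side of LD, AT4G02540 had the largest change in ld of the seedling sets, by log2 0.80 in set 1. CUL1, the cullin that holds SCF ubiquitin ligases together, starts 25 bp from the start of LD and is read away from it, so both genes share the 24 bases between them, shown here from TAIR10.1 because they border the starts of both.
LD to CUL1, chr4:1128491-1128514, plus strand: gcagcgtcttgatgtagatctctg
In set 1, where LD rose most in ld, CUL1 had 1665, 1660 and 1709 in ld and 1638, 1627 and 1638 in Col0 (log2 change 0.04, limma, adjusted p = 0.353). It rose in set 2 by log2 0.17 (limma, adjusted p = 0.000617) and in set 3 by log2 0.11 (limma, adjusted p = 0.00293), was not called in ld apices (log2 change 0.08), and was lower in ld pol2a than in pol2a of set 2 by log2 -0.14. AT4G02580, a subunit of mitochondrial NADH dehydrogenase, and UNE12, a bHLH transcription factor, follow CUL1 and were not called in ld of any set, with log2 changes between -0.10 and 0.08. On the other side, AT4G02540, a C1-domain gene that overlaps AT4G02541, had 690, 719 and 687 in ld and 381, 421 and 402 in Col0 of set 1 (log2 change 0.80, limma, adjusted p = 3.55e-11). It was lower in ld of set 2 and of set 3 (log2 changes -0.30 and -0.20). AT4G02530, a thylakoid lumen protein, changed by log2 -0.17, 0.20 and -0.11 in ld of sets 1, 2 and 3, and AT4G02550, a Myb/SANT-like gene, was called in set 3 alone (log2 change -0.23, limma, adjusted p = 0.0113).

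The AOP genes, dioxygenases that modify aliphatic glucosinolates and differ between accessions, lie 215 to 230 kb to the right of LD. AOP1 was not called in ld of any set, with log2 changes of 0.04, 0.39, 0.12 and 0.17 in sets 1 to 3 and apices. In set 2 it had 131, 139 and 151 in ld pol2a, 318, 280 and 265 in pol2a and 95.8, 118 and 90.5 in Col0. It thus rose in pol2a against Col0 (log2 change 1.5, limma, adjusted p = 3.52e-08) and was lower in ld pol2a than in pol2a (log2 change -1.03, limma, adjusted p = 8.46e-06). AOP3 reached at most 1.56 in any seedling library and 0.0888 CPM in any apex library and was not tested, and AOP2 was not analysed here.

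Grouped by role, no list of neighbours was called in a single direction in every set. The median log2 change of the ankyrin-repeat cluster, described above, was positive in ld of all 4 sets (1.18, 0.36, 0.71 and 1.16 in sets 1 to 3 and apices). AOP1 was also positive in each, without a call. The RNA processing and translation list had a slightly negative median in each, between -0.07 and -0.01. Of all genes, 25.6% were called higher and 27.5% lower in ld of set 1. These shares were 18.6% and 15.9% in set 2, and 19.2% and 19.3% in set 3. They stand beside every list here and in the next paragraph, without a test. Of 11 plastid and photosynthesis genes, 2 were higher and 4 lower in ld of set 1, 8 higher and 1 lower in set 2, and 4 higher and 3 lower in set 3. Their median log2 changes were -0.02, 0.25 and 0.06. In set 2 PSAD-1, a subunit of photosystem I, had 34240, 32851 and 34734 in ld and 25276, 26226 and 26287 in Col0 (log2 change 0.39, limma, adjusted p = 3.55e-08). PETC, the Rieske protein of the cytochrome b6f complex, rose there by log2 0.25. In set 1 PSAD-1 and PETC were not called (log2 changes -0.01 and -0.02). Of 12 tested genes of metabolism and transport, 1 was higher and 6 lower in set 1, 3 higher and 4 lower in set 2, and 1 higher and 5 lower in set 3. SAM-2, an S-adenosylmethionine synthetase, fell in set 1 by 0.32 on the log2 scale.

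Of 12 tested cell wall and secretion genes, 4 were higher and 3 lower in ld of set 1, 0 higher and 3 lower in set 2, and 5 higher and 4 lower in set 3. XTH9, a xyloglucan endotransglucosylase, changed by log2 0.36 in set 1 and -0.20 in set 3, and XT2, a xylosyltransferase of xyloglucan synthesis, by log2 -0.40 in set 1. Of 7 tested transcription factors 2 were higher in set 1, 2 lower in set 2 and 1 lower in set 3. BZO2H1, a bZIP factor, had 465, 439 and 497 in ld and 298, 331 and 297 in Col0 of set 1 (log2 change 0.60, limma, adjusted p = 6.6e-08), but its log2 change was -0.17 in set 2. Of 6 tested hormone genes 1 was higher and 2 lower in set 1, 2 higher in set 2, and 1 higher and 1 lower in set 3. The first included GRH1, an F-box protein related to the auxin receptor TIR1, at a log2 change of 0.40. Of 7 RNA processing and translation genes 1 was higher and 2 lower in set 1, 1 higher in set 2, and 3 higher and 2 lower in set 3, among them EMB2770, a pre-mRNA splicing factor, at 0.31. Of 6 tested stress and protein quality genes 2 were higher and 3 lower in set 1, 2 higher and 1 lower in set 2, and 2 higher and 2 lower in set 3. UBQ14, a polyubiquitin, changed by log2 -0.35, 0.28 and 0.11, and SAG21, a senescence-associated gene, by log2 0.15, -0.02 and -0.21, the second of these without a call. Of 4 DNA repair, chromatin and cell cycle genes 1 was higher and 1 lower in set 1, 1 lower in set 2 and 1 higher in set 3. MSH6, a mismatch repair protein, was lower in set 1 (log2 change -0.22), and WDR5b, a WD40 protein of histone methyltransferase complexes, higher in set 3 (log2 change 0.22). No member of these lists was called in ld apices by edgeR, where the 2 called genes were AT4G03140 and AT4G03150.

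The double mutant showed the same near equality with the rest of the chromosome. In ld pol2a against Col0, 97 of 172 neighbours were called in set 2, 49 higher and 48 lower, which is 56.4% beside 58.5% elsewhere and 57.5% of all genes (29.2% higher and 28.3% lower). In apices 44 of 168 were called, 21 higher and 23 lower, which is 26.2% beside 25.2% elsewhere and 25.7% of all genes (14.8% higher and 10.9% lower). Changes of at least 2-fold were fewer near LD in both, with 5 in set 2 (2.91%, beside 6.23% elsewhere and 6.21% of all genes) and 8 in apices (4.76%, beside 6.78% and 6.5%). These comparisons contain the pol2a mutation as well as ld. On the spike-in scale 171 neighbours were higher and 0 lower in set 2 (99.4%, beside 98.3% of all genes), with a shift of the median gene by log2 1.48.

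Set against pol2a, which leaves ld as the labelled difference, ld pol2a had 91 of 172 neighbours called in set 2 (52.9%, beside 54.0% elsewhere and 54.3% of all genes), 48 higher and 43 lower (27.0% and 27.3% of all genes). Measured against the spike-in, all 172 were higher there, beside 98.3% of all genes called. In apices 24 of 168 were called (14.3%, beside 14.6% elsewhere and 14.3% of all genes), 16 higher and 8 lower (8.43% and 5.89% of all genes). Changes of at least 2-fold were called in 8 neighbours in set 2 (4.65%, beside 5.36% elsewhere and 5.38% of all genes) and in 8 in apices (4.76%, beside 3.84% and 3.46%). In the same set 2, 44 neighbours were called both there and in ld against Col0 (of 91 and of 63), and 19 of the 44 had the same sign, 43.2% beside 34.9% elsewhere. Called in the same direction in both were 11.0% of tested neighbours, 7.81% of genes elsewhere and 7.58% of all genes. In apices 2 neighbours, AT4G03140 and AT4G03150, were called in the same direction in both, 1.19% beside 0.339% elsewhere and 0.246% of all genes. The effect of ld with pol2a differed from that without it for 85 of 172 neighbours in set 2 (interaction in limma), 49.4% beside 50.6% elsewhere and 51.5% of all genes, and for 13 of 168 in apices (edgeR), 7.74% beside 7.84% and 7.54%.

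Some neighbours were high wherever pol2a was mutated. AT4G02110, listed as a transcription coactivator, had 398, 357 and 387 in ld pol2a, 326, 340 and 322 in pol2a and 113, 94.0 and 102 in Col0 of set 2. It rose in ld pol2a (log2 change 1.88, limma, adjusted p = 1.04e-12) and in pol2a (log2 change 1.67), with no call between them (log2 change 0.21, limma, adjusted p = 0.0712). In apices AT4G02110 rose by log2 1.54 in ld pol2a and 1.52 in pol2a against Col0. AT4G02850, of the PhzC/PhzF family, rose in set 2 by log2 1.37 in ld pol2a and 1.28 in pol2a. AT4G02090 changed there by log2 -1.18 in ld pol2a and -1.28 in pol2a, and AT4G03420 by log2 -0.88 and -1.05, and on the spike-in scale both were higher in ld pol2a than in Col0. AT4G03130, a BRCT-domain DNA repair protein chosen after its values were seen, lies beside AT4G03140. It had 16.2, 14.2 and 15.6 in ld pol2a, 14.6, 7.99 and 9.85 in pol2a and 2.34, 6.96 and 3.19 in Col0 of set 2. It passed the filter on low values there through the ld pol2a libraries, so its values are given without a test. In apices it had 2.89, 3.37 and 3.08 CPM in ld pol2a, 2.90, 2.69 and 2.85 CPM in pol2a and 0.606, 1.04 and 0.830 CPM in Col0. Its log2 change in ld was 0.17 in apices and 1.11 in set 3.

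Others differed between ld pol2a and pol2a. RMA1, a membrane-anchored RING ubiquitin ligase, had 692, 705 and 666 in ld pol2a and 326, 326 and 350 in pol2a of set 2 (log2 change 1.04, limma, adjusted p = 4.11e-13). It stood well below Col0 in pol2a (log2 change -1.78, limma, adjusted p = 2e-17), and in ld against Col0 its log2 change was 0.28. GPAT3 had 419, 405 and 380 in ld pol2a and 857, 1022 and 925 in pol2a (log2 change -1.22, limma, adjusted p = 4.78e-11). AT4G01790, of the L7Ae ribosomal protein family and overlapping AGY1, was higher in ld pol2a than in pol2a in set 2 (log2 change 0.76) and in apices (log2 change 1.44, edgeR, adjusted p = 0.00173). RMA1 and AT4G01790 were chosen after their values were seen. In ld pol2a apices the neighbouring lectin receptor kinases AT4G02420 and AT4G02410 were both lower than in Col0 (log2 changes -1.45 and -1.07, edgeR, adjusted p = 0.00578 and 0.0299), and in set 2 their log2 changes were 0.75 and 0.03. The call of AT4G02410 was lost without Col0 library 1 or 2 or ld pol2a library 2 or 3 (adjusted p = 0.0907, 0.0951, 0.0856 and 0.109).

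Comparisons without ld gave the same picture. In pol2a against Col0, 96 of 172 neighbours were called in set 2 (55.8%, beside 62.1% elsewhere and 59.9% of all genes), 49 higher and 47 lower (30.0% and 29.8% of all genes). Measured against the spike-in, 57 were higher and 39 lower, beside 59.2% of all genes called. In apices 10 of 168 were called (5.95%, beside 5.69% elsewhere and 6.04% of all genes), 5 higher and 5 lower (3.7% and 2.33% of all genes). Changes of at least 2-fold were called in 14 neighbours in set 2 (8.14%, beside 9.82% elsewhere and 9.58% of all genes) and in 4 in apices (2.38%, beside 2.07% and 2.42%). In fld against Col0, 108 of 171 were called in set 1 (63.2%, beside 60.1% elsewhere and 58.7% of all genes), 55 higher and 53 lower (29.6% and 29.1% of all genes), and 6 changed by at least 2-fold (3.51%, beside 4.85% elsewhere and 4.47%). Measured against the spike-in, 170 were higher and 0 lower, beside 99.1% of all genes called. The gap between neighbours and the rest of the chromosome was thus 3.08 points in fld and 1.53 points in ld of the same set, which share their Col0 libraries.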

How the data were processed

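Whole plantlets (3 seedling sets with a spike-in) and dissected shoot apices were compared in 13 groups of 3 libraries. The submitters' processing notes name the TAIR10 build, HISAT2, featureCounts, Trimmomatic 0.38, SAMtools 1.9, DESeq2 and deepTools. Apex values are raw read counts per gene as deposited by the authors. Seedling values are deposited signal, which the labels tie to a spike-in and which reads, from the values, as read counts per gene over a factor per library. They are whole multiples of 1 read in 100% of values within 0.1 reads and gave the depths. Columns that carry the name abo belong to pol2a, per the labels' titles. In sets 1 and 2 a direction of the spread within groups was nearly missing, with a smallest singular value of 1.81 and 2.90 beside at least 23.7 and 19.6 for the others, so the limma fits there count a degree of freedom too many. In set 3, Col0 libraries 1 and 2 differed by less than the full sampling noise (chi-square per degree of freedom 0.677), but the noise left without the smallest direction of spread in that set is lower still (0.131), so they were kept apart in the results given first and taken as 1 sample in an alternative.

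Seedling signal was rescaled by median of ratios within a set, since the spike-in scale shifts nearly all genes, and tested with limma 3.58.1 (R 4.3.3) as log2(signal + 1), which understates changes of low genes, with a trended variance, after a filter that kept genes averaging 10 or more. Apex counts were tested with edgeR 4.0.16 (robust quasi-likelihood, TMM, filterByExpr). All groups of a set shared 1 spread estimate. P-values were adjusted over all genes by the Benjamini-Hochberg method, with a threshold of 0.05. The fits were first tested on simulated data with known changes. DESeq2 1.42.0, other scalings, pseudocounts, filters, single libraries left out, a replicate block, and subsets of the neighbours were alternatives, and the Col0 pair as 1 sample and a term for the missing direction were added after the data were seen.

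Positions, names, products and sequences come from TAIR10.1 (RefSeq). The members, role lists and tests were chosen with earlier results of these data known. Named genes were those called with the same sign in ld across all 4 sets, or across all 3 seedling sets, the 2 largest rises and 2 largest falls per comparison against Col0 with ld (mean of at least 50 signal or 5 CPM, libraries not overlapping), the 3 nearest tested genes on each side of LD, the AOP genes, LD, the 2 highest genes per role list and the root genes EXPA17 and RHS13. AT4G03130, RMA1, STS, AT4G01790 and AT4G02005 were added after their values were seen. The share of called genes near LD was set beside that elsewhere on chromosome 4 as a description, with no test. Pairing was judged from whether same-numbered libraries deviated together, by a correlation over 0.1 in every pair. They did in ld and Col0 apices (0.301, 0.648 and 0.646) and in pol2a and Col0 apices (0.44, 0.562 and 0.302), and in no other comparison made, so a replicate block is given beside those results where it moved a count by over 1.5 times.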

Additional observations from a re-analysis of the deposited data

Results flagged for a closer look

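The effect of ld in seedling set 2 was taken with pol2a (ld pol2a against pol2a) and without it (ld against Col0). For 8 of the neighbours named above these effects went in opposite directions, each past the threshold. The 8 were listed only where the difference also passed a test (interaction in limma, adjusted over all genes), so its p-values are a description. The difference is the log2 effect with pol2a minus that without. It was 2.99 for hemf2 (1.97 with pol2a and -1.03 without, adjusted p = 8.83e-14), 2.07 for AT4G01593 (1.08 and -1.0, adjusted p = 4.27e-10) and 1.52 for AT4G03230 (0.41 and -1.11, adjusted p = 8.18e-06). For GSTF2 it was 0.46 (0.22 and -0.24, adjusted p = 9.43e-07), and for AT4G03420 0.55 (0.17 and -0.38, adjusted p = 9.64e-05). It was -1.18 for BSM (-0.59 and 0.60, adjusted p = 1.62e-10), -0.74 for AT4G01570 (-0.40 and 0.34, adjusted p = 1.99e-05) and -0.56 for AGY1 (-0.33 and 0.23, adjusted p = 6.09e-08). Each of these is relative to the shift of the median gene, which was log2 1.42 with pol2a and 0.56 without. Calls of opposite sign were seen for 25 of 172 tested neighbours, 404 of 2779 genes elsewhere on chromosome 4 and 2851 of 19444 among all genes. A difference of any kind passed the test for 49.4% of the tested neighbours and 50.6% of genes elsewhere, and its cause was not tested.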

How the results depend on the processing

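Other scalings by TMM, edgeR on recovered reads, DESeq2 size factors in edgeR, pseudocounts of 0.5 and 5, no filter on low values, and the 5 genes set aside counted in all kept each count of called neighbours within 1.5 times of the value reported. So did a term for the missing direction of spread. On the spike-in scale the counts in ld against Col0 of sets 1, 2 and 3 became 168, 146 and 179, in ld pol2a 171 against Col0 and 172 against pol2a, and in fld 170, with 140 in the same direction in all 3 seedling sets. There 14 of the 38 changes of named genes tested were reversed: GPAT3 (0.51, 0.34 and 0.51 in ld of sets 1, 2 and 3), GSTF2 (0.67, 0.32 and 0.38), MLO1 (1.05, 0.37 and 0.42), AT4G02715 (0.44 in ld of set 1), AT4G03230 (0.056 in ld of set 3), AT4G01593 (0.32 in ld of set 3), and AT4G02090 (0.29) and AT4G03420 (0.60) in ld pol2a against Col0, since their falls were smaller than the shift.

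Counts fell by construction in subsets. In the order ld against Col0 of sets 1, 2, 3 and apices, ld pol2a against Col0 in set 2 and apices, ld pol2a against pol2a in set 2 and apices, pol2a against Col0 in set 2 and apices, and fld, they were 48, 31, 42, 0, 50, 25, 49, 10, 56, 3 and 58 within 250 kb of LD. At 2-fold or more they were 6, 5, 4, 1, 5, 8, 8, 8, 14, 4 and 6. Without overlapping genes they were 55, 34, 45, 0, 55, 22, 55 and 13, then 57 for pol2a in set 2 and 66 for fld. Called in the same direction in all 4 sets and in the 3 seedling sets were 0 and 2 within 250 kb, 0 and 3 without overlapping genes, and 0 and 0 at 2-fold.

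In apices the ld count of 2 became 13 with DESeq2, 0 with 2 groups alone in the fit and 7 with a replicate block. The pol2a count of 10 became 16 with DESeq2 and 6 at a mean of at least 50. Same-numbered libraries met the rule for pairing in ld against Col0 and pol2a against Col0 of apices alone. The replicate block moved no other count by more than 1.5 times and lost none of the calls of named genes refitted. Without single libraries the counts in ld ran from 80 to 90 (set 1), 52 to 59 (set 2), 65 to 81 (set 3) and 0 to 29 (apices). They ran from 86 to 92 (set 2) and 24 to 35 (apices) in ld pol2a against Col0, 75 to 85 and 5 to 19 in ld pol2a against pol2a, 81 to 92 and 5 to 9 in pol2a, and 91 to 105 in fld. The apex counts moved by over 1.5 times without ld pol2a library 2 (24 against Col0 and 6 against pol2a) or 3 (27 and 5), pol2a library 2 (8 in ld pol2a against pol2a), and, in pol2a against Col0, Col0 library 1 or 2 (5 each) or pol2a library 1 or 2 (6 each). In ld apices the count was 0 without Col0 library 1 or 2 or ld library 1 or 2, 4 without Col0 library 3 and 29 without ld library 3. Of 264 changes of named genes refitted without a library, 37 lost their call and none reversed. Of the 37, 5 belong to AT4G02850 in ld pol2a against Col0 of apices, which kept its call only without Col0 library 1 and also lost it with no filter on low values (adjusted p = 0.0534), and the others stand beside their results. With 2 groups alone in the fit GPAT3 in set 2 lost its call as well (adjusted p = 0.0556).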
